A study of Homo sapiens with 6 samples.

Results

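ABCB1 and 8 protein-coding or long non-coding genes around it on chromosome band 7q21 were examined in J82, an established human bladder cancer line. The 9 genes, ABCB1, ABCB4, RUNDC3B, CROT, DMTF1, TP53TG1, SLC25A40, DBF4 and ADAM22, were chosen by name and position and make up 9 of the 57820 rows of the count table. The RNA-seq experiment held 3 control libraries of J82 cells carrying the vector and 3 libraries labelled FOXC1 KO, in which lentiviral CRISPR/Cas9 with a guide against the transcription factor FOXC1 was followed by puromycin selection. Both groups were grown in the same serum-containing medium, and messenger RNA was sequenced in 75-base pairs to 18408134 to 25350908 assigned read counts per library. The methods speak of knockout clones, but nothing in the labels says that the 3 libraries of a group came from separate clones or cultures, so the p-values measure the spread between these libraries, which may be technical. The question addressed was whether the lower ABCB1 count belonged to ABCB1 alone or was shared by its chromosomal neighbours.

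ABCB1 encodes P-glycoprotein, a membrane pump that uses ATP to carry many drugs and dyes out of the cell. Cells with strong efflux of a DNA dye form the side population of a culture, and ABCB1 is among the transporters that can produce this efflux. In some drug-selected lines the whole chromosomal segment is amplified, and neighbours such as ABCB4 and SRI can then rise with ABCB1, which is the reason for reading ABCB1 against the genes beside it.

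The promoter windows of the genes that fell, with that of a neighbour that was not called, show how different the starts in this locus are. Each is a RefSeq window of 300 bases, from 250 before to 50 after a transcript start, located by exact match on GRCh37 and written 5′ to 3′ on the strand of the gene. Capitals mark the forkhead core TAAACA, the CCAAT box, the GC box GGGCGG and the TATA box TATAAA, on either strand. A CCAAT box on the opposite strand reads ATTGG here, and a GC box on the opposite strand reads CCGCCC. ABCB1 has 2 starts 112411 bases apart, with windows at chr7:87342562-87342861 (upstream, minus strand) and chr7:87230151-87230450 (downstream, minus strand). The RUNDC3B window is at chr7:87257464-87257763 (plus strand), and the DBF4 window at chr7:87505558-87505857 (plus strand).
ABCB1 upstream start: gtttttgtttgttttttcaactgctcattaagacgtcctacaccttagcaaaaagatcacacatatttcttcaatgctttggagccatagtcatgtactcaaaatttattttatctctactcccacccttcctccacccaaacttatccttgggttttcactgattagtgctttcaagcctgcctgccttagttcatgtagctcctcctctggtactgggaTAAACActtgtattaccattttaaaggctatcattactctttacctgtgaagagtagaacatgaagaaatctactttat
ABCB1 downstream start: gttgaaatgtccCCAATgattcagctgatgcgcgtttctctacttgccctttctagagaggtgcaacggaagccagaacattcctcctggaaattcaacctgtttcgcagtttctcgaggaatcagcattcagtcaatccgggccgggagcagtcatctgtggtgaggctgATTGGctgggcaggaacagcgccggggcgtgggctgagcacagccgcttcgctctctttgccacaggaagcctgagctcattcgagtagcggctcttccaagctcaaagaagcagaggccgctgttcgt
RUNDC3B: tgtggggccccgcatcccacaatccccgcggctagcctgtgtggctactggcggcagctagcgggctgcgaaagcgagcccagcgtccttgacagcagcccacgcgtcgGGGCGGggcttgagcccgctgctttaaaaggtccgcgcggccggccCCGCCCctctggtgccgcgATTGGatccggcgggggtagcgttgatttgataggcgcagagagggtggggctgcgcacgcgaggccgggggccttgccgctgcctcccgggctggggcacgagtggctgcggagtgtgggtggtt
DBF4: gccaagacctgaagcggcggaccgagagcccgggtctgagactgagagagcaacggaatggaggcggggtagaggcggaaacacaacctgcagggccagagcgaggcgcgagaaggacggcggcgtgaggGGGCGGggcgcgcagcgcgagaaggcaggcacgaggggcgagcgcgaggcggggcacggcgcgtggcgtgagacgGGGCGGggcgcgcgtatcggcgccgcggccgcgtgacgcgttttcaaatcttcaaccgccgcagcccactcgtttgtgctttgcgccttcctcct

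The upstream ABCB1 window was 37.7% G and C with 1 CG dinucleotide, and held 1 TAAACA and none of the other 3 motifs. The downstream ABCB1 window was 55.3% G and C with 16 CG dinucleotides, and held 2 CCAAT matches, 1 of them on the opposite strand, with no TAAACA or GC box. The windows of RUNDC3B (71.3% G and C, 32 CG dinucleotides) and DBF4 (70.7%, 44) were richer in both, and each held 2 GC boxes. RefSeq windows were at hand for 8 of the 9 genes, ABCB4 being the gene without one, and the other 5 ranged from 65.3% to 71.3% G and C. Over 35116 RefSeq windows of the same length the median was 58.7% G and C with 14 CG dinucleotides, so the upstream ABCB1 window lay below both medians, the downstream one below the first and above the second, and the windows of the 7 neighbours above both. TAAACA was found in 12.3% of all windows, CCAAT in 34.6%, GGGCGG in 45.0% and TATAAA in 11.5%. Among the windows of these genes TAAACA was present at the upstream ABCB1 start only, and TATAAA in none. These are matches of letters, and no binding was measured in these libraries.

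The FOXC1 transcript was read first as a check of the labels. FOXC1 (chr6:1610150-1614132, GRCh37) gave 18.4, 16.9 and 19.3 CPM in the control libraries and 24.1, 22.2 and 21.1 CPM in the KO-labelled ones, where CPM are read counts scaled to a common library size with TMM factors. It was therefore not lower in any KO-labelled library, with a log2 difference of 0.30 (SE 0.091) and an adjusted p of 0.0127 in edgeR's quasi-likelihood test. The fold of 1.23 lay under the 1.3-fold that a call required here in addition to an adjusted p of 0.05. A guide-directed cut need not lower the transcript. The methods state that knockout clones were checked by western blot, a measure of FOXC1 protein that these files do not hold. The paper reports less FOXC1 protein in J82 knockout cells on such a blot. The comparisons below are therefore between libraries labelled control and libraries labelled KO.

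ABCB1 fell in the KO-labelled libraries to 23.5% of its control level (95% interval 21.1 to 26.3). The gene (ENSG00000085563.10, chr7:87132333-87342639, minus strand) gave 2712, 2706 and 3000 counts in the control libraries and 492, 664 and 686 in the KO-labelled ones. On the scaled level this was 121, 111 and 118 CPM against 26.7, 26.3 and 29.1 CPM. All 3 KO-labelled libraries lay far below all 3 control libraries, and the spread within either group was small, at 117 ± 5.18 CPM and 27.4 ± 1.52 CPM (mean ± SD, n = 3 each). The log2 difference was -2.09 (SE 0.078, 95% interval -2.25 to -1.93) with an adjusted p of 3.41e-18 in edgeR, a 4.25-fold fall. It was the 21st lowest log2 difference of 15647 tested genes, and the level of ABCB1 moved from above 87.6% of tested genes in the control libraries to above 55.7% in the KO-labelled ones. As the cultures were sequenced in bulk, fewer ABCB1-expressing cells and less ABCB1 RNA per cell cannot be told apart.

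**Figure D1:**
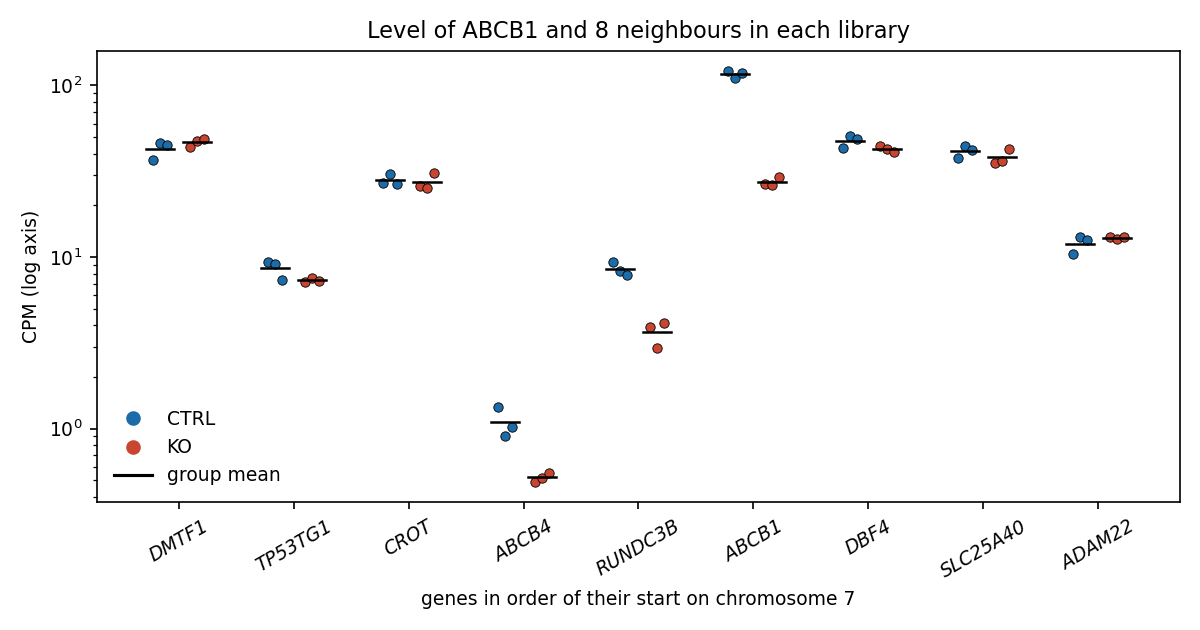
CPM of ABCB1 and its 8 neighbours in each of the 3 control and 3 KO-labelled libraries, on a log axis, with a point for each library and a line at the group mean. ABCB1, ABCB4 and RUNDC3B separate completely between the groups, while the other 6 genes overlap.

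RUNDC3B, a RUN domain protein gene, was the neighbour with the largest fall. It lies head to head with the downstream ABCB1 start (ENSG00000105784.11, chr7:87256864-87461611, plus strand), with the RefSeq starts 27514 bases apart. The control libraries gave 210, 202 and 201 counts (9.36, 8.27 and 7.90 CPM). The KO-labelled libraries gave 72, 74 and 97 counts (3.91, 2.93 and 4.12 CPM). The groups did not overlap, and the log2 difference was -1.23 (SE 0.14, 95% interval -1.51 to -0.95) with an adjusted p of 4.55e-08 in edgeR. The KO-labelled level was 42.8% of control, a 2.34-fold fall.

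ABCB4, the closest relative of ABCB1 in the genome and the pump that moves phosphatidylcholine into bile, was scarcely expressed. The gene (ENSG00000005471.11, chr7:87031012-87109751, minus strand) lies 22581 bases from ABCB1 on the same strand, with its start on the side of ABCB1. It gave 30, 22 and 26 counts in the control libraries and 9, 13 and 13 in the KO-labelled ones, or 1.09 ± 0.225 and 0.519 ± 0.0318 CPM (mean ± SD, n = 3 each). The lowest control library, at 0.901 CPM, still lay above the highest KO-labelled one, at 0.552 CPM. The log2 difference was -1.04 (SE 0.29, 95% interval -1.64 to -0.45) with an adjusted p of 0.00715 in edgeR. With DESeq2 the estimate was -1.06 and the adjusted p of 0.0773 missed the threshold, so the call on ABCB4 depended on the tool at this depth.

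The remaining 6 genes were not called in either direction. CROT, the peroxisomal carnitine octanoyltransferase that helps pass shortened fatty acids on to mitochondria, gave 27.1, 30.3 and 26.8 CPM in the control libraries and 26.0, 25.1 and 30.8 CPM in the KO-labelled ones. TP53TG1, a long non-coding RNA, gave 9.40, 9.13 and 7.39 CPM and then 7.12, 7.57 and 7.26 CPM. The groups overlapped for both, although the RefSeq starts of these genes are only 172 bases apart on opposite strands. Their log2 differences were -0.04 (95% interval -0.23 to 0.15, adjusted p 0.788 in edgeR) and -0.23 (-0.47 to 0.01, adjusted p 0.138).

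DMTF1, a Myb-like factor that activates the ARF tumour suppressor, lies farthest from ABCB1 among the 9. It gave 36.8, 46.1 and 44.8 CPM in the control libraries and 43.7, 47.6 and 48.6 CPM in the KO-labelled ones. The first control library was the low one, and the groups overlapped, with a log2 difference of 0.13 (95% interval -0.04 to 0.31, adjusted p 0.264 in edgeR).

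On the other side lie SLC25A40, a mitochondrial carrier linked to glutathione import, and DBF4, the activating subunit of the CDC7 replication kinase. They are on opposite strands, with RefSeq starts 133 bases apart, and share 145 exon bases in the GENCODE annotation, which places the DBF4 start differently. SLC25A40 gave 38.0, 44.1 and 41.9 CPM against 35.2, 36.3 and 42.9 CPM, and DBF4 43.1, 50.5 and 49.0 CPM against 44.6, 42.7 and 41.1 CPM. For both, the KO-labelled libraries lay within or just below the range of the control libraries, and the first control library was the lowest of its group. The log2 differences were -0.12 (95% interval -0.29 to 0.06, adjusted p 0.344 in edgeR) and -0.15 (-0.32 to 0.01, adjusted p 0.156). Because of the shared exon bases, reads in that stretch cannot be assigned to either gene without strand.

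ADAM22, a catalytically inactive ADAM protein that serves as the neuronal receptor of LGI1, gave 10.4, 13.0 and 12.5 CPM in the control libraries and 13.0, 12.7 and 13.1 CPM in the KO-labelled ones. The KO-labelled libraries were nearly equal and inside or close to the control range, with a log2 difference of 0.11 (95% interval -0.10 to 0.33, adjusted p 0.444 in edgeR). A p that misses the threshold does not show that these 6 genes stayed the same. The intervals do bound the change, and the lowest bound among the 6 genes was -0.47, for TP53TG1, against an upper bound of -1.93 for ABCB1.

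Of the 8 neighbours, 2 were called lower (25%), where 8.39% of all tested genes were, and 0 were called higher, where 7.57% were. The 2 neighbours called lower were also the only ones with an unadjusted p under 0.05 in edgeR, and DESeq2 called 0 neighbours higher as well. The median log2 difference of the 8 neighbours was -0.13, with 6 of the 8 below zero, beside -0.00084 over all tested genes. Groups did not overlap for 3 of the 9 genes, ABCB1, ABCB4 and RUNDC3B, as held for 41.3% of all tested genes. In all 3 the KO-labelled libraries lay below the control libraries, as held for 20.8% of tested genes. The exact two-sided permutation test over libraries gave 0.1 for these 3 genes, the smallest p that 3 against 3 allows.

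**Figure D2:**
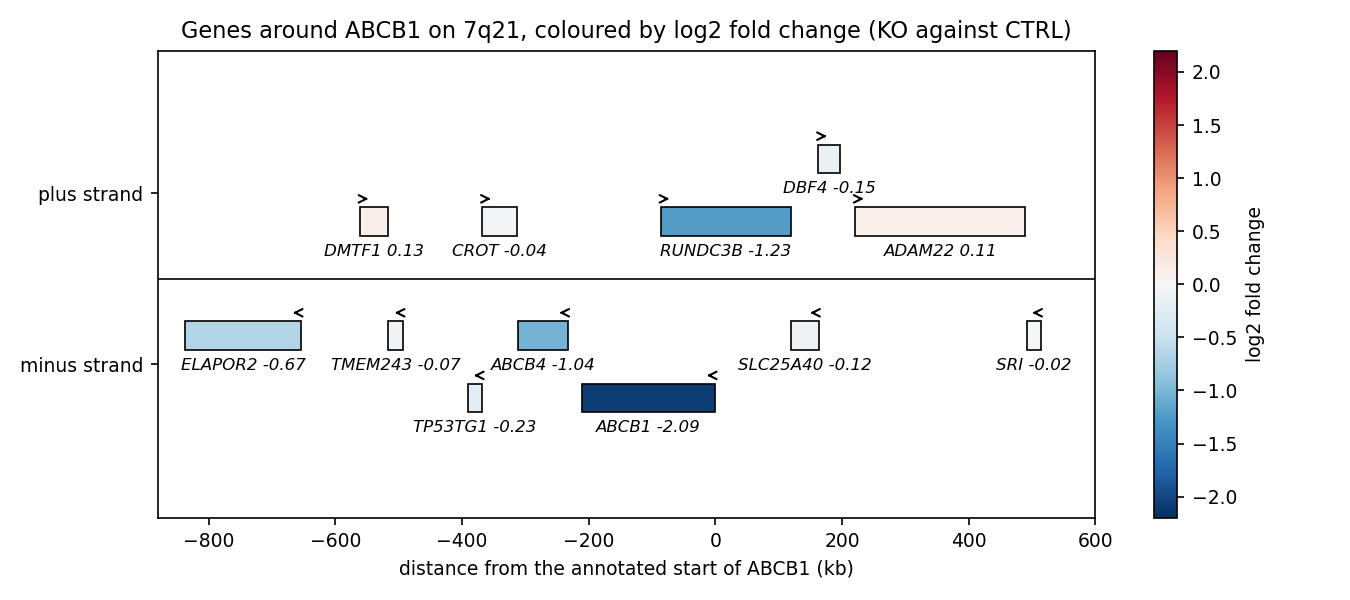
Map of the 9 genes with ELAPOR2, TMEM243 and SRI, drawn by distance in kb from the upstream ABCB1 start and by strand, with arrows at transcript starts and colour for the log2 difference between KO-labelled and control libraries. The genes called lower, ABCB4, RUNDC3B and ABCB1, are consecutive among the tested genes, between CROT and DBF4.

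In order of transcript start, the 3 genes called lower were consecutive. Measured from the upstream ABCB1 start by GENCODE positions, RUNDC3B starts at -85.8 kb and ABCB4 at -232.9 kb, and CROT, the next tested gene beyond, at -367.7 kb. On the other side DBF4 and SLC25A40 start at 162.9 and 163.0 kb. The size of the fall nevertheless differed within this run, as the ratio of each neighbour to ABCB1 in the same library shows without any scaling of libraries. RUNDC3B counts were 7.74%, 7.46% and 6.70% of ABCB1 counts in the control libraries and 14.6%, 11.1% and 14.1% in the KO-labelled ones. ABCB4 counts rose from 1.11%, 0.813% and 0.867% of ABCB1 counts to 1.83%, 1.96% and 1.90%. The log2 ratio to ABCB1 was higher in the KO-labelled libraries by 0.86 for RUNDC3B (95% interval 0.55 to 1.17, adjusted p 5.67e-08 in limma) and by 1.07 for ABCB4 (0.43 to 1.71, adjusted p 0.00102). Both genes therefore fell by less than ABCB1.

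For the 6 neighbours that were not called, the log2 ratio to ABCB1 was higher by 1.86 for TP53TG1 (adjusted p 4.69e-38 in limma, the largest of the 6) to 2.23 for DMTF1. CROT counts, for example, were 22.4%, 27.3% and 22.7% of ABCB1 counts in the control libraries and 97.2%, 95.3% and 106% in the KO-labelled ones. DBF4 counts went from 35.6%, 45.6% and 41.6% of ABCB1 counts to 167%, 162% and 141%, so that DBF4 passed ABCB1 in read number. The ratio was higher for 8 of 8 neighbours at an adjusted p of 0.05 in limma, but so it was for 99.4% of the 15646 genes in that test, and the count thus restates how far ABCB1 fell. Every ratio shares the ABCB1 counts, so these tests are not independent of each other. The size of p also depended on the setting, and the adjusted p of TP53TG1 reached 1.23e-06 in limma among the alternatives.

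**Figure D3:**
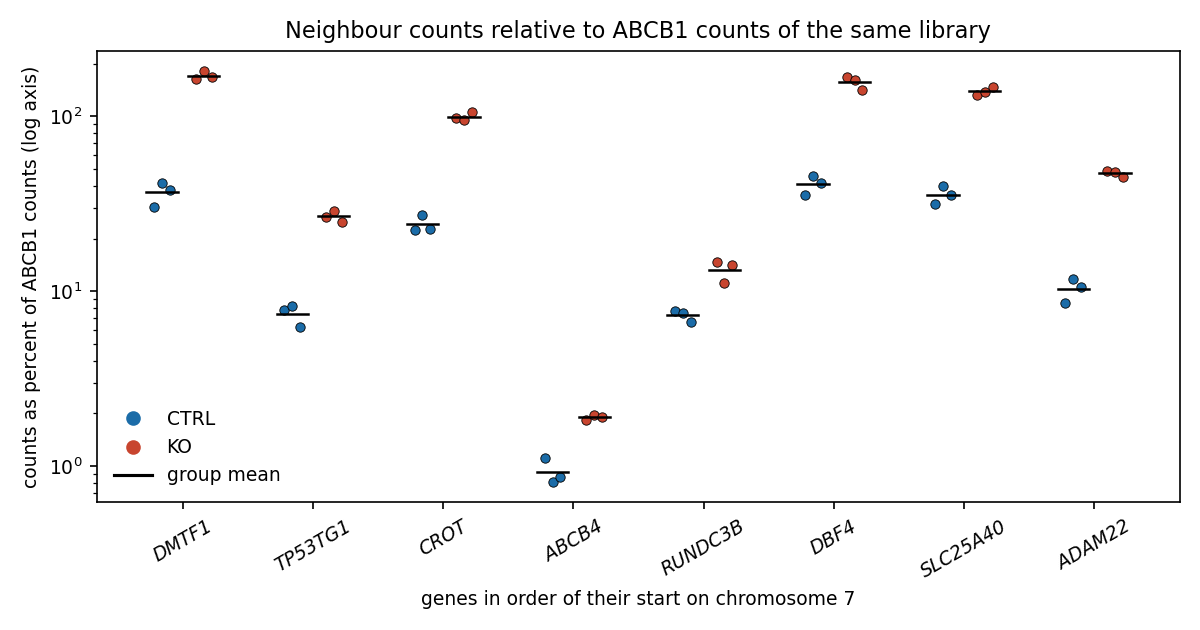
Counts of each neighbour as a percentage of ABCB1 counts in the same library, on a log axis, with a point for each control and KO-labelled library. All 8 neighbours are higher relative to ABCB1 in the KO-labelled libraries, RUNDC3B and ABCB4 by the smallest amounts.

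Levels can be set against each other only per length, and the following are RPKM, CPM per kilobase of annotated exon. In the control libraries ABCB1 stood first among the 9 genes at 18.1 ± 0.806 RPKM, followed by DBF4 (10.3 ± 0.858), SLC25A40 (8.13 ± 0.613), CROT (5.62 ± 0.383) and DMTF1 (4.54 ± 0.535). RUNDC3B (1.80 ± 0.161), TP53TG1 (1.40 ± 0.177), ADAM22 (0.874 ± 0.10) and ABCB4 (0.141 ± 0.0291) were lower, and no neighbours in this order overlapped between libraries. In the KO-labelled libraries ABCB1, at 4.27 ± 0.237 RPKM, came after DBF4 (9.31 ± 0.374), SLC25A40 (7.50 ± 0.824), CROT (5.46 ± 0.615) and DMTF1 (4.98 ± 0.272), of which CROT and DMTF1 overlapped. RUNDC3B, at 0.774 ± 0.134 RPKM, moved from above TP53TG1 and ADAM22 to below both (mean ± SD, n = 3 for each value).

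The 2 neighbours called lower are also the 2 whose reads could be mixed with those of ABCB1. The spans of ABCB1 and RUNDC3B share 85776 bases on opposite strands, and 1546 of the 4725 RUNDC3B exon bases lie inside the ABCB1 span, although the genes share 0 exon bases. The strand setting of the counting is not given in the sources used here, and without strand, reads from unspliced ABCB1 RNA over these RUNDC3B exons would be counted as RUNDC3B. A processed pseudogene inside ABCB1 on the opposite strand, HNRNPA1P9, named after its values were seen, gave 1, 3 and 2 counts in the control libraries and 0 in each KO-labelled library, too few to be tested. ABCB1 and ABCB4 transcripts share identical runs of up to 122 bases and 54 stretches as long as a 75-base read, and 3.24% of ABCB4 25-base words also occur in ABCB1. The part of such reads in the falls of RUNDC3B and ABCB4 was not tested.

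The window was then widened beyond the 8 neighbours. Within 2 Mb of the ABCB1 start, 12 genes besides ABCB1 were tested, with 3 called lower (ABCB4, RUNDC3B and ELAPOR2), 0 called higher and a median log2 difference of -0.09. Without the 8 neighbours 4 genes were left, of which 1 was called lower (25%), 0 higher, with a median of -0.04. Over all tested genes 8.39% were called lower and 7.57% higher, and the 25% here stands for 1 gene. That gene, ELAPOR2, a transmembrane protein gene formerly named KIAA1324L, starts at -653.7 kb. It fell from 20.7 ± 1.01 to 13.0 ± 0.701 CPM (mean ± SD, n = 3 each), a log2 difference of -0.67 (SE 0.094, adjusted p 1.93e-06 in edgeR), with DMTF1, CROT and TP53TG1 lying between it and the run of genes called lower. SRI, which encodes the calcium-binding protein sorcin and starts at 513.7 kb, gave 88.1 ± 4.16 and 87.0 ± 6.25 CPM (log2 difference -0.02, 95% interval -0.17 to 0.13, adjusted p 0.887). TMEM243, beside DMTF1 and sharing 178 exon bases with it, gave a log2 difference of -0.07 (adjusted p 0.606).

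**Figure D4:**
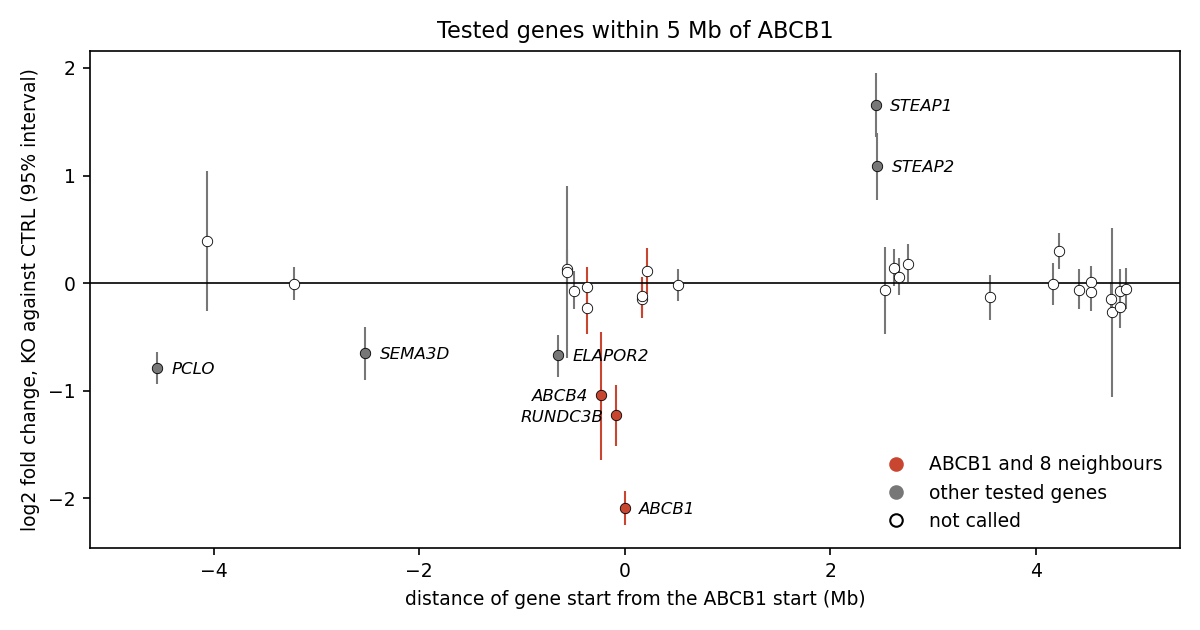
Log2 difference between KO-labelled and control libraries, with 95% intervals, of the tested genes within 5 Mb of the upstream ABCB1 start, against distance in Mb, with open points for genes not called. ABCB1 at -2.09 is the lowest point, followed by RUNDC3B at -1.23 and ABCB4 at -1.04.

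In the 5 Mb window 33 genes besides ABCB1 were tested, with 5 called lower, 2 called higher and a median of -0.06. Over the whole of chromosome 7 the corresponding numbers were 783 tested, 79 lower (10.1%), 47 higher (6.0%) and a median of -0.06. The shares called lower were thus 25% within 2 Mb, 15.2% within 5 Mb and 10.1% over the chromosome, beside 8.39% of all tested genes. The first share stands for 3 genes, and as the windows are nested, the same 3 genes count in the wider ones too. Without the 8 neighbours, 25 genes were tested within 5 Mb, with 3 called lower and 2 called higher. Whether the share called lower changes with distance was not tested.

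The genes whose profile over the 6 libraries was most like that of ABCB1 lay on other chromosomes. Likeness was the SD over libraries of the log2 ratio to ABCB1, over the 10982 tested genes that averaged 5 CPM or more, so that a gene that fell by a similar amount scores as alike. The 5 nearest were ID1 (SD 0.111) and ID3 (0.160), inhibitors of basic helix-loop-helix factors, DERL3 (0.177), a component of endoplasmic reticulum degradation, SAMD11 (0.191), a SAM domain protein gene, and A2M (0.209), the protease inhibitor alpha-2-macroglobulin. They are on chromosomes 20, 1, 22, 1 and 12. ID1 went from 61.4 ± 5.04 to 13.4 ± 0.947 CPM and ID3 from 45.1 ± 4.04 to 10.0 ± 1.27 CPM, with log2 differences of -2.19 and -2.16, beside -2.16 for DERL3, -1.94 for SAMD11 and -2.35 for A2M. RUNDC3B ranked 38th in likeness (SD 0.496) and the 6 uncalled neighbours between 1656th and 7930th, while ABCB4 lay under the CPM minimum.

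**Figure D5:**
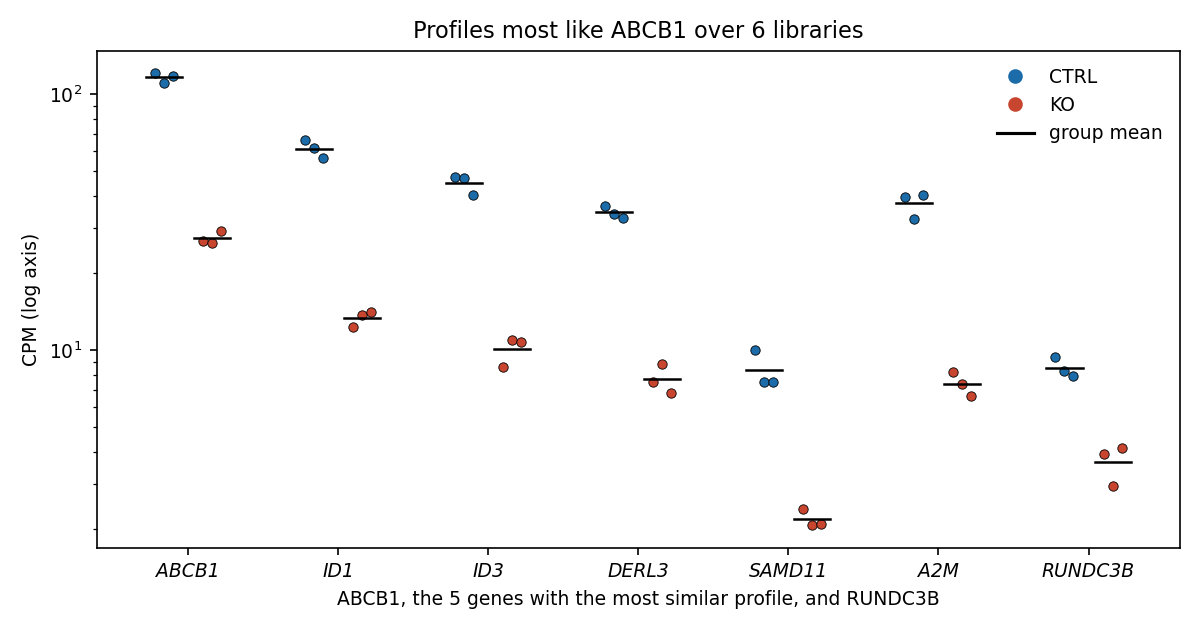
CPM on a log axis in each control and KO-labelled library for ABCB1, the 5 genes most like it in profile, and RUNDC3B, with a line at each group mean. The 5 genes fell by 1.94 to 2.35 on the log2 scale, beside 2.09 for ABCB1 and 1.23 for RUNDC3B.

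The relatives of ABCB1 in the ABCB subfamily were read from the same fit. Of 11 genes of the ABCB subfamily 9 were tested, with 2 called lower (ABCB1 and ABCB4), 1 called higher and a median log2 difference of 0.07. Over all tested genes 8.39% were called lower and 7.57% higher, and the 2 called lower include ABCB1 itself. TAP2, a subunit of the peptide transporter for antigen presentation, rose from 4.78 ± 0.644 to 6.66 ± 0.431 CPM (log2 difference 0.48, adjusted p 0.00607 in edgeR). The mitochondrial members ABCB8 (0.07) and ABCB10 (-0.23, adjusted p 0.0713) and the lysosomal ABCB9 (-0.03) were not called. TAP1, the partner of TAP2, had a log2 difference of 0.27 that lay under the fold required.

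Among 29 genes listed as regulators of ABCB1 transcription, 28 were tested, with a median log2 difference of 0.01. Of these 1 was called lower, where 8.39% of all tested genes were. FOXO1, a forkhead factor, fell from 7.61 ± 0.858 to 2.84 ± 0.182 CPM (log2 difference -1.41, adjusted p 4.13e-09 in edgeR). JUN, an AP-1 subunit, rose from 175 ± 8.14 to 241 ± 18 CPM (0.46, adjusted p 1.08e-05). The part of these genes in the fall of ABCB1 was not tested.

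The partner genes of the uncalled neighbours were read from the same fit. Beside the counts in these lists, 8.39% of all tested genes were called lower and 7.57% higher. For CROT, 17 of 18 genes of peroxisomal and carnitine-dependent acyl transport were tested, with 0 called lower and 2 called higher, namely ACOX3, a peroxisomal acyl-CoA oxidase (log2 difference 0.70, adjusted p 1.33e-06 in edgeR), and ABCD3, a peroxisomal transporter (0.46, adjusted p 2.07e-05). In edgeR 5 genes of that list had an unadjusted p under 0.05. The share of all tested genes under that threshold is not given here, so this count does not set the list apart. For DBF4, 16 of 16 replication origin genes were tested and 1 was called, ORC6, an origin recognition subunit that fell from 63.1 ± 3.54 to 47.2 ± 0.825 CPM (-0.42, adjusted p 8.2e-05). CDC7, the kinase that DBF4 activates, had a difference of 0.23 (adjusted p 0.0382), under the fold required. For DMTF1, 16 of 16 genes of the ARF axis were tested, and ZMAT3, an RNA-binding protein gene, was called higher (0.47, adjusted p 0.000265). CDKN2A, which encodes ARF, had a difference of -0.26 (adjusted p 0.0239) and the ubiquitin ligase gene MDM2 of 0.29 (adjusted p 0.00643), both under the fold required, and the cell cycle inhibitor gene CDKN1A one of 0.02 (adjusted p 0.893). For ADAM22, the list of 12 genes held ADAM22 itself with its partners. Of these 6 were tested, ADAM22 among them, and 1 was called higher, DLG4, a postsynaptic scaffold (0.59, adjusted p 6.19e-05). LGI1 had 0 counts in all libraries. ADAM23, a relative of ADAM22, had a difference of 0.24 and was not called.

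Markers of cell identity moved between the groups as well, where 8.39% of all tested genes were called lower and 7.57% higher. J82 expressed KRT7 at 992 ± 103 and 948 ± 68.3 CPM, while the urothelial differentiation gene UPK3A was at 0 in all libraries and KRT5, KRT20, UPK1A, UPK1B, UPK2 and CDH1 were near 0. The list of 15 epithelial and urothelial markers, 8 of them tested, also held the mesenchymal genes VIM and CDH2. VIM gave 315 ± 21 and 389 ± 10.8 CPM (log2 difference 0.30, adjusted p 0.00137 in edgeR, under the fold required), opposite in direction to the keratins, and CDH2 210.0 ± 6.29 and 194 ± 13.3 CPM (-0.11, adjusted p 0.251). Of the other 13 markers 6 were tested and 5 were called lower, KRT8, KRT18, KRT19, GATA3 and EPCAM, with log2 differences of -0.86 to -0.42. The summed level of all 13, the uncalled KRT7 included, was 3050 to 3880 CPM in the control libraries and 2400 to 2680 CPM in the KO-labelled ones. With VIM and CDH2, which were set apart after the values were seen, it was 3570 to 4430 and 2970 to 3240 CPM. Of 12 markers of other cell types 11 were in the table, 4 were tested and 3 were called higher. These were COL1A1, a fibroblast collagen (2.68 ± 0.844 to 12.2 ± 0.211 CPM), CD14, a monocyte marker (3.52 ± 0.470 to 5.38 ± 0.391 CPM), and the endothelial CDH5, which was near 0 in the control libraries and at 0.932 ± 0.199 CPM in the KO-labelled ones. The summed level of that list was 34.6 to 45.8 CPM in the control libraries and 55.0 to 61.0 CPM in the KO-labelled ones, with the T cell marker CD3E at 0. The largest part of this sum was PDGFRB, the tested marker that was not called. It gave 32.8 ± 4.66 and 39.1 ± 3.69 CPM (log2 difference 0.26, adjusted p 0.0401 in edgeR, under the fold required). The part of these shifts in the falls of ABCB1, RUNDC3B and ABCB4 was not tested.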

How the data were processed

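The authors deposited raw read counts per gene for 6 libraries, made from KAPA mRNA HyperPrep libraries by alignment to hg19 with STAR and counting with featureCounts against GENCODE version 19. Tool versions, strand and multi-mapping settings are not given in the sources used here. Groups and replicate numbers came from the sample titles, and 0 columns belonged to other samples. Genes were tested with edgeR 4.0.16 in R 4.3.3 (TMM scaling, filterByExpr, robust quasi-likelihood F test, group as the only term) on all 6 libraries, with Benjamini-Hochberg adjustment over 15647 genes. Calls required both an adjusted p under 0.05 and a change of more than 1.3-fold. SEs were derived from the F statistic. Of all tested genes 1313 were called lower and 1184 higher. Ratios to ABCB1 were tested with limma 3.58.1 on log2 of the counts plus 0.5. The steps were tested on simulated data. The replicates of each group differed by more than counting noise.

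Positions, exon lengths and overlaps came from a later GENCODE release than that of the counting, lifted to GRCh37, the assembly of hg19. In it 55538 gene IDs (96.05%) were found. Promoter windows, and the starts named as RefSeq starts, came from RefSeq GRCh38.p14, matched to GRCh37 by sequence. The 9 genes, the gene lists and the tests were chosen with earlier results of these data known, and the 4 motifs after the windows had been seen. The genes named were all 9 members, the called genes of each list (at most 6, smallest p first) with listed genes that share a member's role, the called genes within 2 Mb, FOXC1 and the 5 genes most like ABCB1. Some listed genes are not reported here. Same-numbered libraries did not deviate together. Alternatives were DESeq2 1.42.0, other scalings, filters and thresholds, a replicate block and leaving out each library.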

Additional observations from a re-analysis of the deposited data

How the results depend on the processing

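ABCB1 was called lower under all 12 alternatives, with log2 differences of -2.14 to -2.06, as was RUNDC3B at -1.34 to -1.08. The count of neighbours called lower was 2, and became 1 with DESeq2, where ABCB4 missed the threshold (-1.06, adjusted p 0.0773), and 1 with a mean of at least 50 counts, where ABCB4 was not tested. Neighbours called higher stayed at 0. The median of the neighbours ranged from -0.18 to -0.08. Leaving out single libraries took CROT from -0.14 to 0.02 and SRI from -0.06 to 0.04, so that the sign of both turned (CROT 0.02 without the second control or second KO-labelled library, SRI 0.02 without the second control and 0.04 without the first KO-labelled library), with no call in either. CDKN1A likewise ranged from -0.06 to 0.08 with no call. GCLM, SLC25A10 and CDKN2A passed the required fold when single libraries were left out (up to 0.47, -0.47 and -0.38 without the second KO-labelled library). It also ended the calls on GATA3 (-0.37 without the first KO-labelled library) and, in the list for ABCB4, on TMEM30A (0.36 without the first control and 0.31 without the third KO-labelled library), where the fold fell under 1.3. FOXC1 missed the adjusted p without the second control (0.0827) or the first KO-labelled library (0.0784). The labels give both groups the same replicate numbers. Deviations of same-numbered libraries correlated at -0.0254, -0.0615 and 0.0469, so no shared deviation was seen. These values cannot tell whether the libraries were paired by culture or batch. With a replicate block ABCB1 was at -2.09, RUNDC3B at -1.22 and ABCB4 at -1.03, with 1351 genes called lower and 1200 higher, and no call on the 9 genes changed. Depth limits ABCB4, with 9 to 30 counts a library.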

Other observations

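Farther out on the same chromosome arm, a list of 26 genes around the 9 had 23 tested, with 3 called lower, 2 called higher and a median log2 difference of -0.06. The shares over all tested genes were 8.39% lower and 7.57% higher. STEAP1 and STEAP2, neighbouring genes for membrane proteins of the STEAP family, rose from 3.22 ± 0.236 to 10.0 ± 2.09 CPM and from 2.87 ± 0.485 to 6.10 ± 0.983 CPM (mean ± SD, n = 3 each), with log2 differences of 1.66 and 1.09 (adjusted p 3.99e-10 and 2.58e-06 in edgeR). Besides ELAPOR2, the listed genes called lower were SEMA3D, a secreted guidance factor (-0.65, adjusted p 0.000108), and SAMD9L, an interferon-inducible gene (-0.46, adjusted p 1.87e-05). PCLO, a presynaptic scaffold gene within 5 Mb that the list did not hold, fell from 71.4 ± 2.49 to 41.2 ± 0.295 CPM (-0.79, adjusted p 1.66e-09).

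The 9 genes listed for mitochondrial glutathione handling, the pathway of SLC25A40, were all tested and had a median log2 difference of -0.19. In edgeR 0 were called, where 8.39% of all tested genes were called lower and 7.57% higher. Of the 9 genes, 6 had an unadjusted p under 0.05 and 5 of these an adjusted p under 0.05, with changes smaller than 1.3-fold. The shares of all tested genes under these p thresholds are not given here, so the counts do not set the pathway apart. GCLM, a glutathione synthesis subunit, had the smallest p and was higher by 0.36 (adjusted p 0.00104), while its partner GCLC was at -0.22 (adjusted p 0.0424). SLC25A10, a mitochondrial dicarboxylate carrier, was at -0.36 (adjusted p 0.0177), FECH, the last enzyme of haem synthesis, at -0.28 (adjusted p 0.00535), and AFG3L2, a mitochondrial protease, at -0.27 (adjusted p 0.00411). SLC25A39, the close relative of SLC25A40 that AFG3L2 degrades, was at -0.19 (adjusted p 0.0608). In the list for ABCB4, bile canalicular phospholipid transport, 6 of 10 genes were tested, beside the same shares called over all tested genes. ABCB4 itself was called lower and TMEM30A, a flippase subunit, higher (147 ± 5.92 to 193 ± 19.5 CPM, 0.40, adjusted p 0.000145 in edgeR).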
